A study of Bos taurus with 18 samples.

Results

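The genes described here are secreted ligands of the bone morphogenetic protein (BMP) and growth and differentiation factor (GDF) families and the secreted antagonists that bind them: BMP2, BMP4, BMP6, GDF5, GDF6, GREM1 (gremlin), NOG (noggin), CHRD (chordin), BMPER and FST (follistatin). They were chosen by symbol, and all 10 were found among the 16989 genes counted. The ligands bind receptor serine/threonine kinases of types I and II, which phosphorylate the transcription factors SMAD1, SMAD5 and SMAD9. These enter the nucleus with SMAD4 and switch on targets such as the ID genes. Gremlin, noggin and chordin hold BMPs away from their receptors, follistatin mainly holds activins, and BMPER can dampen or carry BMP signals. In skeletal progenitors the pathway is known for its part in cartilage and bone formation, and GDF5 is a marker of the forming joint.

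The study asked whether the transcriptome of undifferentiated bovine mesenchymal stem cells (MSCs) tells which cells will later build cartilage matrix. Poly-adenylated RNA was sequenced from 17 clonal populations, each grown out of 1 cell and lettered A to Q, and from 1 heterogeneous population of many cells. All 18 came from the bone marrow of the same donor, a juvenile Bos taurus animal without genetic modification. They were grown on plastic in DMEM with FBS and antibiotics and taken at passage 1, before any chondrogenic medium. Each population gave 1 library, so a clone has no replicate error of its own, and a difference is judged against the spread between clones. In such bulk RNA, fewer cells that express a gene and less of its RNA per cell cannot be told apart.

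Between 11484812 and 18458157 reads fell on genes in a clone (median 14193790) and 16092501 in the heterogeneous library. Levels are given as counts-per-million (CPM) after TMM scaling, which corrects for a few abundant genes taking up reads. A count of 0 allows up to 3 reads, which is 0.170 to 0.273 CPM, and covers counting error only. CPM takes no account of gene length, so levels are compared between libraries and never between genes. Clones C and O were far closer to each other than any other pair: the chi-square of their counts per degree of freedom was 4.73, against 21.4 for the next of the 153 pairs. They differed by more than counting noise and stayed 2 clones, but results that rest on them are given without them too. The MSC markers THY1, NT5E, CD44, ENG, PDGFRA and PDGFRB were read in every library, LEPR had at most 2 reads, and of 8 endothelial markers CDH5, ESAM and CLDN5 were at 0, KDR and EMCN had at most 1 read, and PECAM1, TEK and VWF were read in every library, VWF with 9 to 93 reads per clone and 170 in the heterogeneous library. The endothelial markers summed to 1.70 to 8.64 CPM in the clones, below their sum in the heterogeneous library (12.99 CPM). GAPDH, which cells use throughout, was listed with 1 to 12 reads per clone and the follistatin relative FSTL1 with 1 to 8, so a low count in this annotation need not be a low level.

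Among the ligands, BMP2 and BMP4 were read in every library and both spread widely over the clones. BMP2 ran from 13.7 CPM in clone D through a median of 33.7 to 95.4 in clone P, a 6.94-fold range. Clones O (84.2 CPM), A (83.1) and C (75.0) followed P at the top, and D had only 154 reads. Its SD over the clones was 0.84 on the log2(CPM + 0.25) scale, larger than for 89.4% of the 11459 genes that exceeded 1 CPM in some clone. BMP4, a main bone and cartilage inducer, ran from 12.3 CPM in clone L through a median of 40.6 to 105 in clone P. This is an 8.58-fold range with an SD of 0.71, whereas the median SD over genes was 0.32. Clones Q (57.1 CPM), A (55.8) and F (52.4) came next, well below P. At the bottom G (19.9 CPM), O (22.0) and C (26.1) followed L. Neither P nor L was called for BMP4 in the tests of single clones given below.

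The other ligands were near the detection limit. BMP6 had 7 to 41 reads per clone, from 0.474 CPM in clone H through a median of 1.14 to 2.94 in K. Its SD of 0.61 has to be read beside the 0.38 that counting alone gives at this depth. GDF5 had 0 reads in 13 clones, 1 in B and 2 in J, but 26 in P (1.47 CPM) and 12 in Q (0.808 CPM). The joint marker was thus read well above the limit in P and Q only. GDF6, a close relative of GDF5, had at most 6 reads (clone D) and 0 in 7 clones, and was the member that did not pass the filter on low counts. The other 9 passed it and entered every main fit.

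**Figure D1:**
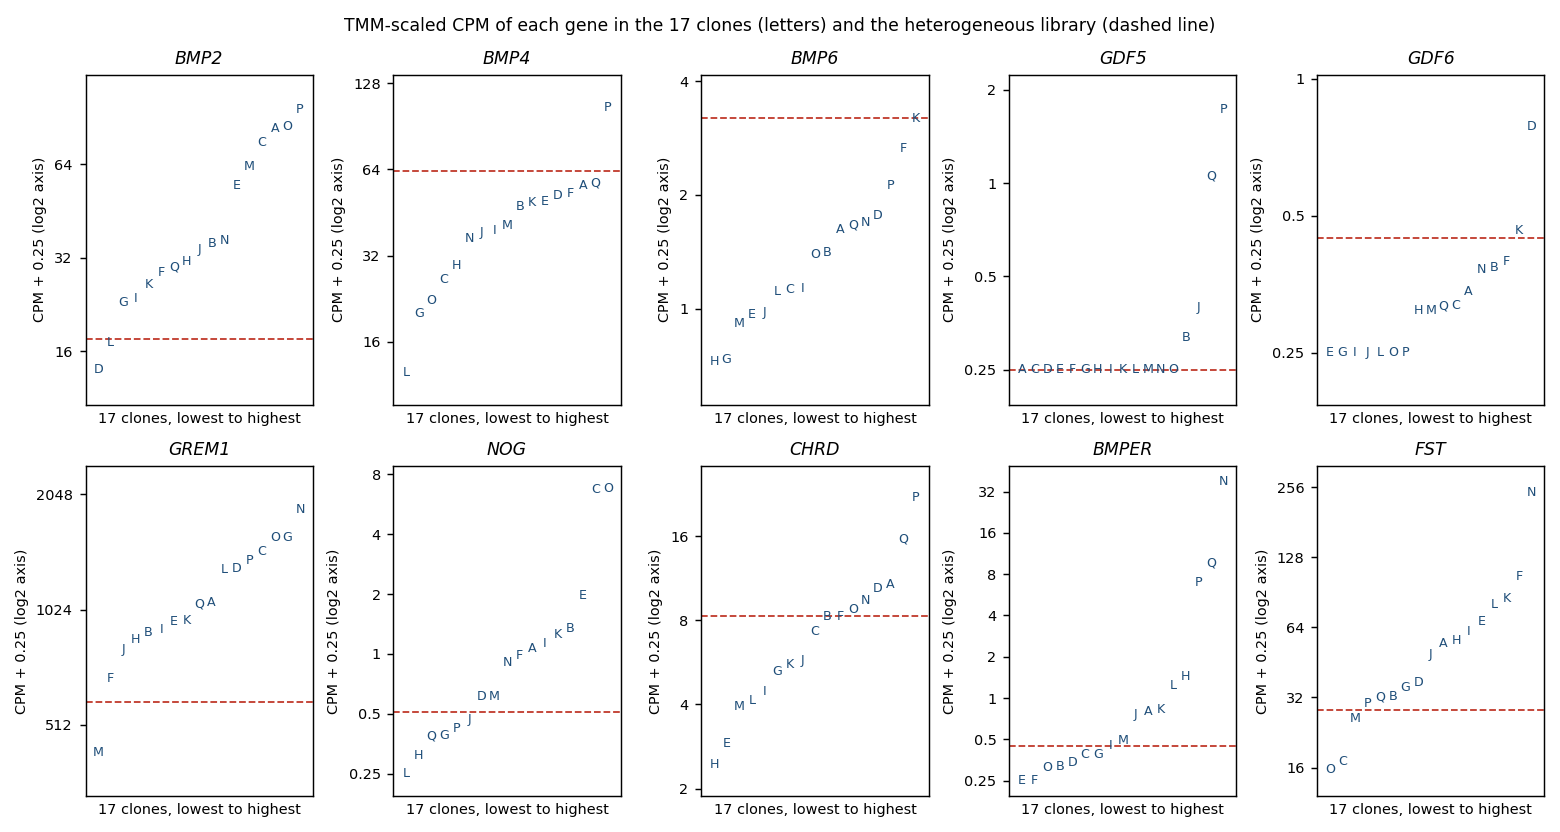
Each panel plots 1 gene, with the 17 clones as letters ordered from lowest to highest and the heterogeneous library as a dashed line. The vertical axis is TMM-scaled CPM plus 0.25 on a log2 axis. BMP4 and CHRD peaked in clone P (105 and 21.7 CPM), BMPER and FST in N (37.7 and 243 CPM) and NOG in C and O (6.46 and 6.54 CPM).

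Of the antagonists, GREM1 had the most reads and the narrowest spread. It ran from 433 CPM in clone M through a median of 1061 to 1872 in clone N, a 4.32-fold range with an SD of 0.52. Clones G (1584 CPM), O (1579) and C (1451) followed N, and M lay well below the next lowest, F (677). FST ran from 15.4 CPM in clone O through a median of 48.7 to 243 in N, a 15.7-fold range. The second highest, clone F, reached 106 CPM, and C with 16.7 CPM lay beside O at the bottom. CHRD ran from 2.19 CPM in clone H through a median of 7.07 to 21.7 in P, a 9.90-fold range. Clone Q (15.3 CPM) followed P, and these were also the 2 clones with more than 3 GDF5 reads.

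NOG and BMPER were low in most clones and high in a few. NOG had 96 reads in C (6.46 CPM) and 109 in O (6.54 CPM), 24 in E (1.72 CPM) and 0 to 16 in each of the other 14. Its SD of 1.38 was above that of 98.1% of genes, but has to be read beside an estimated 0.76 from counting alone. BMPER had 576 reads in N (37.7 CPM), 140 in Q (9.42 CPM) and 119 in P (6.74 CPM), and at most 20 reads (1.19 CPM, clone H) elsewhere. It was at 3 reads or fewer in 8 clones, and its SD of 2.07 was above that of 99.9% of genes. Counting alone was estimated to give an SD of 0.94 for BMPER. Noggin was thus read in 16 of 17 clones but highest in C and O, and BMPER was highest in N, P and Q.

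**Figure D2:**
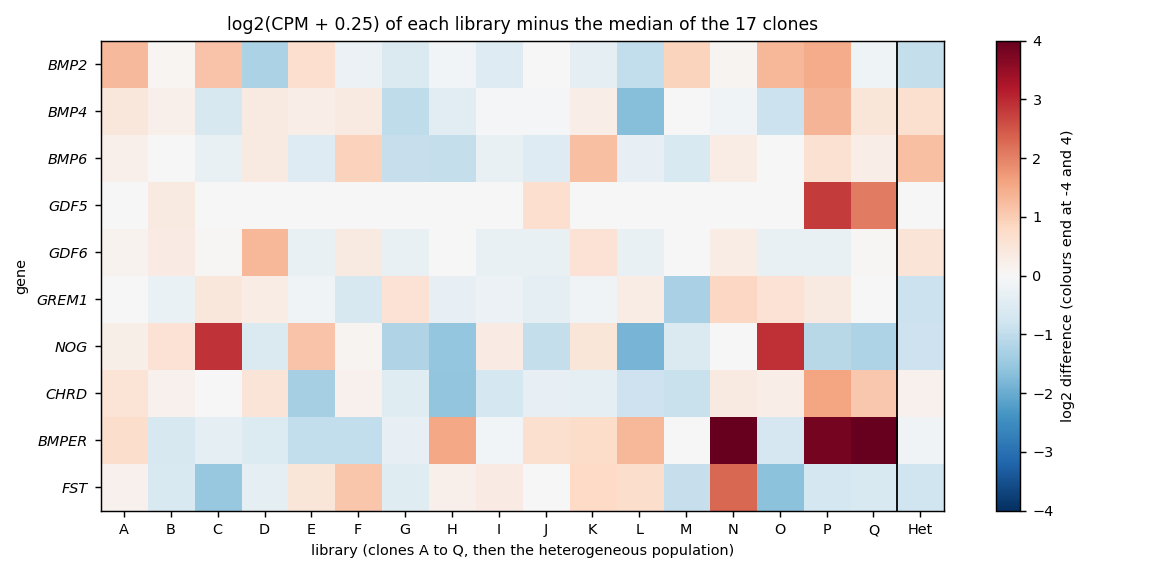
Each row is 1 gene and each column 1 library, with the heterogeneous population last. Colour gives log2(CPM + 0.25) minus the median of the 17 clones, red above and blue below, and ends at -4 and 4. The strongest reds are BMPER in N, P and Q, NOG in C and O, GDF5 in P and FST in N, followed by GDF5 in Q.

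The balance of antagonist to ligand reads differed between clones as well. Clone L had 106 GREM1 reads for each BMP4 read and M had 10.7, with a median of 21.0 over the clones and 9.31 in the heterogeneous library. BMP2 reads per BMP4 read ran from 0.265 in D to 3.82 in O, with a median of 0.989. BMP2 and BMP4 did not run together in a way the test could show: Pearson r was 0.293 (permutation p = 0.253) and Spearman rho 0.184 (permutation p = 0.475) over the 17 clones. GREM1 against BMP4 gave r = -0.263 (permutation p = 0.307) and rho = -0.275 (permutation p = 0.285), and r = -0.435 without the extreme clones L and P.

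Setting each clone against the other 16 asks whether a clone stands apart from the spread of the rest. No member passed an adjusted p of 0.05 in any clone by edgeR's quasi-likelihood test (0 of 153 tests of 9 members in 17 clones, Benjamini-Hochberg adjustment over 11761 genes). Over all genes, calls came to 0.731% in clone N, 0.034% in M and 0% in the other clones. At an unadjusted p under 0.05 there were 10 of the 153, beside 4.4% of all tests. The nearest to a call were FST in N, with a log2 difference of 2.31 ± 0.58 (SE, adjusted p = 0.0710), and BMPER in N, with 4.82 ± 1.33 (adjusted p = 0.0941). limma-voom called BMPER in N (adjusted p = 5.06e-05), GDF5 in P (0.000387) and NOG in O (0.0426). Over all genes limma-voom also made more calls than edgeR. GDF5 passed the filter on low counts only through P and Q, so its call in P leans on the reads that admitted it. Scaling by library totals, edgeR called FST in N (adjusted p = 0.0490). With the near-identical clones C and O summed, NOG stood 3.57 ± 0.88 above the rest (adjusted p = 0.150). The other unadjusted hits were BMP4, CHRD and GDF5 high in P, BMP4 low in L, GREM1 low in M, BMP6 high in K and NOG high in C and O. Among the other pathway genes only INHBB, an activin subunit, was called in a clone: it had 0 reads in N against a median of 2.90 CPM over the clones (adjusted p = 0.0376).

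To find which genes ran with a member, the slope of every gene on the member's log2 level was tested over the 17 clones, with 1 fit for each of the 9 members. A slope of 1 means that a gene doubled where the member doubled. Of 531 slopes of a pathway or cartilage gene on a member, 33 passed an adjusted p of 0.05 (24 positive, 9 negative), and 25 did when all 9 fits were adjusted together. That is 6.21%, beside 5.35% of the slopes of all genes, so as a group these genes followed the members about as often as others did. The counts lay on few members: 11 on BMPER, 9 on BMP4, 8 on GREM1, 3 on GDF5, 1 each on CHRD and FST, and none on BMP2, BMP6 or NOG. For those 3, 8.99%, 9.32% and 10.2% of all genes had an unadjusted p under 0.05. limma-voom called 0 genes for BMP2 and BMP6. The calls of GDF5 on BMP4, CHRD and BMPER lean on P and Q, the clones through which GDF5 passed the filter.

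BMP4 had the broadest following, with 9.29% of 11760 genes on a positive slope and 10.3% on a negative one past the threshold (34.7% at an unadjusted p under 0.05). Positive slopes were called for 2 of 8 other members (GDF5 and CHRD), 1 of 5 other ligands (GDF15, a stress-responsive ligand), 1 of 7 other antagonists and modulators (NBL1, a relative of gremlin), 1 of 12 receptors and co-receptors (RGMB, a BMP co-receptor) and 1 of 10 cartilage genes (COL11A1). Negative slopes were called for 2 of 10 SMADs and regulators (SMAD9 and SMAD4) and for 1 of 10 BMP target genes (ID1). The target genes had a median slope of -0.19, against 0.02 over all genes. The genes on a negative slope thus included a signal transducer and a classical target of the pathway, beside 10.3% of all genes. With 10 genes in each list, counts of 2 and 1 do not set these lists apart from all genes.

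ID1, a direct BMP target, fell by 1.34 log2 units (SE 0.30) per log2 unit of BMP4 (edgeR adjusted p = 0.00724). It was highest in O (57.5 CPM) and C (51.4), followed by G (27.1), L (26.7) and N (23.0), and lowest in D (2.23 CPM). Apart from N these are the 4 clones with the least BMP4. Pearson r was -0.690 (permutation p = 0.00197, adjusted 0.0191 over 11458 genes), Spearman rho -0.718 (permutation p = 0.00182), and r = -0.772 without L and P. SMAD9, which carries the BMP signal, had a slope of -0.84 ± 0.14 (SE, edgeR adjusted p = 0.00234), with 15.4 to 17.6 CPM in L, G, O and C and 3.39 in D. Its r was -0.827 (permutation p = 4e-05, adjusted 0.00325), its rho -0.799 (permutation p = 0.00023), and r = -0.852 without L and P. The slopes of ID1, SMAD9, GDF15 and RGMB passed the threshold with each clone left out in turn. SMAD4 passed in 7 of 17 such fits and COL11A1 in 10, and NBL1 was lost without P (slope 0.32). GDF5 passed in each too, but its slope rests on P (26 reads) and Q (12), the clones with the most BMP4. Other clones had at most 2 GDF5 reads, and without P and Q together GDF5 was not tested. In limma-voom the GDF5 slope was 1.93 in place of 3.71 and SMAD4 missed the threshold (adjusted p = 0.0557). With library totals COL11A1 missed it (adjusted p = 0.0786) and SMAD4 had a slope of -0.20 in place of -0.11. CHRD had a slope of 0.68 ± 0.21 on BMP4 (edgeR adjusted p = 0.0307), but this fell to 0.49 (adjusted p = 0.173) without clone P, to 0.32 without P and Q, and missed the threshold without G or L at 0.69 and 0.72. Leaving out L or G, the clones with the least BMP4, cut the genes that followed it to 1224 and 1345.

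The cell cycle genes MKI67 and TOP2A, picked after their values were seen, ran against BMP4. TOP2A ranged from 12.3 CPM in clone M to 313 in L. Against BMP4 its r was -0.706 (permutation p = 0.00135, adjusted 0.0391 over 45 relations of members with library measures), rho was -0.691 (permutation p = 0.00296) and r without G and L was -0.523. MKI67 gave r = -0.692 (permutation p = 0.00174, adjusted 0.0391), rho = -0.647 (permutation p = 0.00625) and r = -0.533 without L and O. With the TOP2A level as a second term in the fit, the genes that followed BMP4 fell from 2305 to 1, and those with an unadjusted p under 0.05 from 34.7% to 10.7%. None of the 9 pathway slopes on BMP4 then passed. ID1's slope became -0.34 ± 0.37 (adjusted p = 0.807), and SMAD9's -0.62 ± 0.20 (adjusted p = 0.264). The positive slopes of GDF15 (1.27 ± 0.33), NBL1 (0.54 ± 0.15), RGMB (0.35 ± 0.08) and CHRD (1.15 ± 0.27) kept their size or grew but missed the threshold, with adjusted p between 0.159 and 0.199. BMP4 and TOP2A levels were not independent here, and their parts in these slopes cannot be told apart. The TMM factor also ran against BMP4, with r = -0.618 (permutation p = 0.00758, adjusted 0.0568) and -0.425 without A and L. It was not entered as a second term, so its part in these slopes was not tested.

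**Figure D3:**
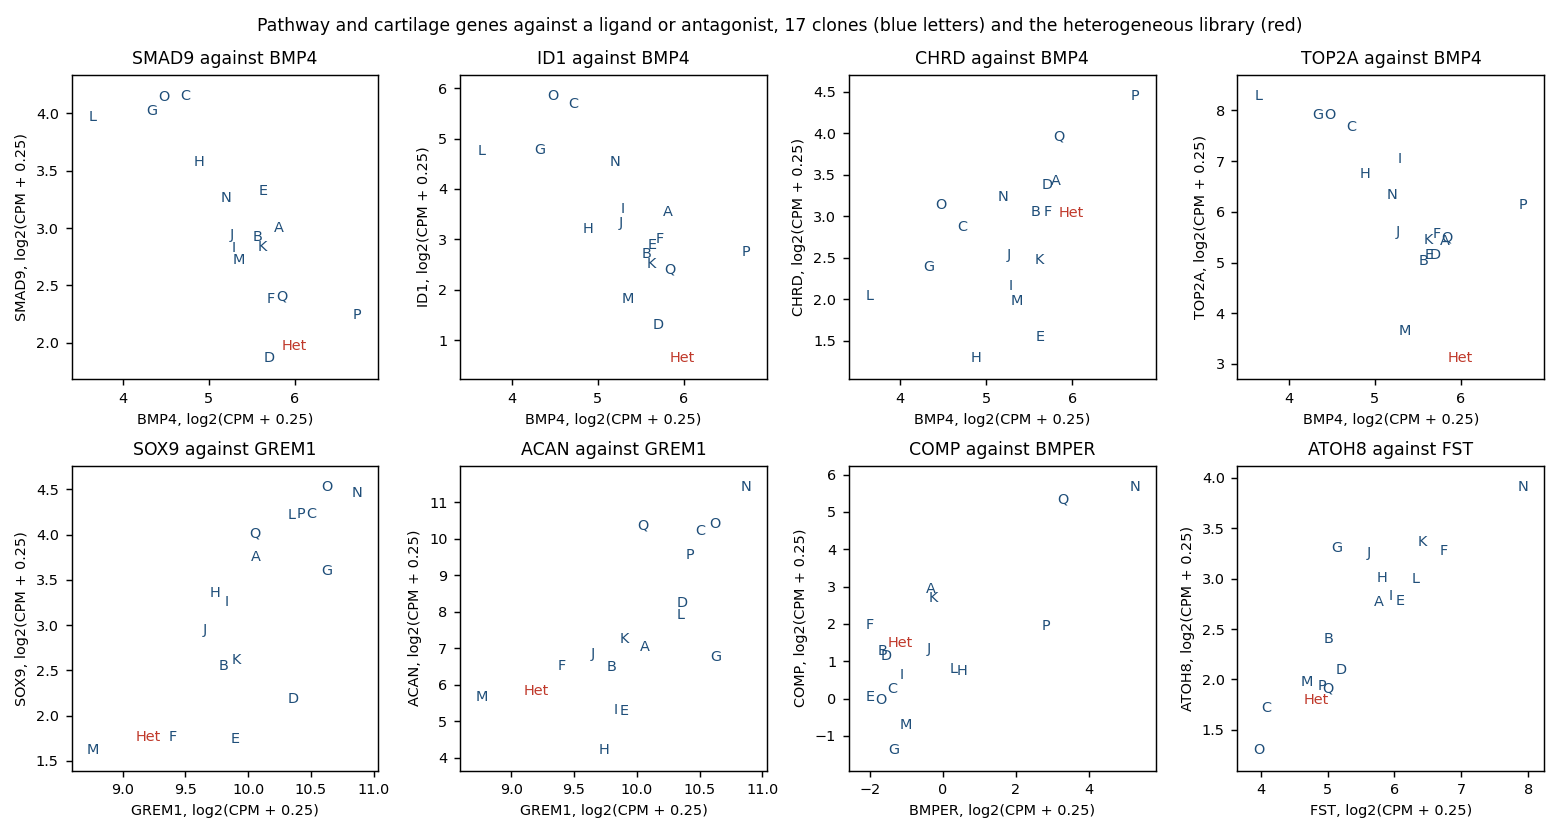
Each panel plots a gene against a member, both as log2(CPM + 0.25), with the 17 clones as blue letters and the heterogeneous library in red, which entered no fit. SMAD9 (r = -0.827), ID1 (r = -0.690) and TOP2A (r = -0.706) ran downward with BMP4 over the clones. SOX9 and ACAN rose with GREM1 (r = 0.756 and 0.692), COMP was highest in the BMPER-high clones N and Q (50.7 and 40.1 CPM), and ATOH8 rose with FST (r = 0.878).

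GREM1 was followed by 5.55% of genes on a positive slope and 2.49% on a negative one (26.8% at an unadjusted p under 0.05). Of 10 cartilage genes 3 were called, all positive, and the median slope of the list was 1.53, against 0.02 over all genes. This lean was not particular to GREM1: the list's median slope was positive on every other member, from 0.02 on FST to 0.90 on BMP6. All 10 were positive on BMP6 and on CHRD (median 0.87), with 0 called. The list also holds widely spread genes, with an SD of 2.11 for ACAN and 1.98 for COL2A1. SOX9, the transcription factor that sets the cartilage program, had a slope of 1.53 ± 0.30 (edgeR adjusted p = 0.0153). It had 2.83 CPM in clone M, lowest in GREM1, and 21.7 in N, highest in GREM1. Its r was 0.756 (permutation p = 0.00029, adjusted 0.0361), its rho 0.757 (permutation p = 0.00051, adjusted 0.0546, which missed the threshold), and r = 0.660 without M and N. ACAN, the aggrecan core protein of cartilage, had a slope of 2.80 ± 0.64 (adjusted p = 0.0212) and ran from 18.4 CPM in H through 131 to 2734 in N. COL2A1, the main cartilage collagen, had a slope of 2.61 ± 0.67 (adjusted p = 0.0286). SOX9 passed with each clone left out, ACAN missed without O (slope 2.72, adjusted p = 0.0518), and COL2A1 missed without C, F or O (2.36, 2.55 and 2.32). In limma-voom SOX9 and ACAN passed and COL2A1 did not (2.37, adjusted p = 0.0690).

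Other pathway genes on GREM1 were ACVR2A, a type II receptor, with a slope of -1.04 ± 0.17 (edgeR adjusted p = 0.00725), BMPR1B, a type I receptor (1.44 ± 0.39), SKI, which represses SMAD complexes (0.50 ± 0.15), ID1 (1.84 ± 0.43) and BMPER (3.54 ± 1.05). ACVR2A passed with each clone left out. The BMPER slope passed in 2 of 17 such fits and dropped to 1.77 (adjusted p = 0.444) without clone N, SKI passed in 6, BMPR1B in 11, and ID1 in all but those without M (2.01) or O (1.59). BMPR1B had a slope of 2.305 without M. limma-voom lost ID1 (1.74, adjusted p = 0.0726) and BMPER (2.32, adjusted p = 0.312). Single clones moved the genes that followed GREM1 from 946 to 162 without O, 320 without C, 328 without F, 408 without M, 424 without G and 586 without B, and to 1509 without D and 1485 without N. Without clones C and O, GREM1 was followed by 75 genes, and of the 8 pathway slopes ACVR2A alone still passed. The SOX9 slope was then 1.42 (adjusted p = 0.0710) and that of ACAN 2.61 (adjusted p = 0.0850). GREM1 also ran with TOP2A, with r = 0.672 (permutation p = 0.00315, adjusted 0.0472), rho = 0.525 (permutation p = 0.0323) and r = 0.643 without G and L. With TOP2A in the fit 19 genes followed GREM1 and none of the 8 pathway slopes passed: ID1 was at 0.38 ± 0.43, SOX9 at 1.14 ± 0.37 (adjusted p = 0.190), and ACAN at 3.76 ± 0.88 (adjusted p = 0.0789). The parts of GREM1 and TOP2A in these slopes cannot be told apart either. GREM1 ran with the TMM factor as well, with r = 0.643 (permutation p = 0.00462, adjusted 0.0512) and 0.729 without A and L. For the percent of reads outside genes r was 0.550 (permutation p = 0.0250, adjusted 0.140). The part of these 2 measures was not tested.

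BMPER was followed by 10.3% of genes on a positive slope and 8.1% on a negative one (32.7% at an unadjusted p under 0.05). Its level was above 1.19 CPM in N, P and Q alone, so these 3 clones weigh most in its slopes. GDF5 passed the filter on low counts only through P and Q, so its slope on BMPER leans on the reads that admitted it. Positive slopes were called for TWSG1, a secreted BMP-binding partner of chordin (0.19 ± 0.03, edgeR adjusted p = 0.000546), for the receptor ACVR1 (0.12 ± 0.02), the co-receptor RGMA (0.32 ± 0.09), GDF5 (1.02 ± 0.23), and 3 of 10 cartilage genes: SOX5 (0.24 ± 0.03), COMP (0.75 ± 0.11) and HAPLN1 (0.48 ± 0.09). Negative slopes were called for INHBA, an activin subunit (-0.27 ± 0.09), BMP1, the protease that cuts chordin (-0.12 ± 0.04), ACVR2B (-0.22 ± 0.06) and DLX5, a bone-forming factor (-0.29 ± 0.09). In N, the clone with the most BMPER, TWSG1 was at 228 CPM against a clone median of 91.6, HAPLN1 at 119 against 12.1, and COMP at 50.7 against 1.96. COMP was also high in Q (40.1 CPM) but at 3.63 in P. All 11 passed with TOP2A in the fit. The percent of reads outside genes ran with BMPER, with r = 0.638 (permutation p = 0.0107, adjusted 0.0689) and 0.317 without L and N. Its part in these slopes was not tested. With 1 clone left out, INHBA passed in 9 of 17 fits and BMP1 in 11, DLX5 missed without N, P or Q, RGMA without P or Q and ACVR1 without N, and the other 6 passed in each. In limma-voom 3 of the 11 missed the threshold: GDF5, whose slope fell from 1.02 to 0.33 (adjusted p = 0.223), RGMA (0.20, adjusted p = 0.0891) and INHBA (-0.25, adjusted p = 0.0736). The genes that followed BMPER fell to 1103 without N and 1346 without Q. Without N, P and Q, 52 genes followed BMPER instead of 2169, and none of the 10 slopes that could be fitted passed (GDF5 was then not tested). Larger slopes were seen over the other 14 clones for INHBA (-1.002, adjusted p = 0.0564), RGMA (0.56, adjusted p = 0.222), SOX5 (0.33, adjusted p = 0.163) and ACVR2B (-0.33, adjusted p = 0.436). BMP1 was slightly smaller, at -0.116 in place of -0.125 (adjusted p = 0.769). Smaller slopes were also seen for COMP (0.51), HAPLN1 (0.12), TWSG1 (0.10) and ACVR1 (0.06), and DLX5 turned to 0.13.

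GDF5, CHRD and NOG had small followings, and the calls depended on few clones. GDF5 was followed by 0.527% of genes on a positive slope and 0.034% on a negative one, among them NBL1 (0.43 ± 0.09), RGMA (0.76 ± 0.16) and the BMP target ID2 (-0.47 ± 0.10, edgeR adjusted p = 0.0350), and 16.9% had an unadjusted p under 0.05. With 1 clone left out the genes that followed it numbered 2 without P, 13 without Q and 617 without N. NBL1 missed without F, P or Q (0.42, 0.33 and 0.49), RGMA without the same clones (0.73, 0.74 and 0.78), and ID2 without I, J, P or Q (-0.45 to -0.47). Without P and Q together 0 genes followed GDF5, with slopes of 0.66 for NBL1, 1.02 for RGMA and -0.12 for ID2 over clones with at most 2 GDF5 reads. With library totals RGMA and ID2 missed (adjusted p = 0.0595 and 0.0709), and with a pseudocount of 1 CPM, which compresses the GDF5 scale, all 3 passed at slopes up to 1.67. CHRD was followed by 0.136% of genes, all positive (10.4% at an unadjusted p under 0.05), with GDF5 as its 1 pathway gene (3.19 ± 0.45). The GDF5 slope leans on P and Q, the clones whose reads admitted GDF5 and the highest in CHRD. It was lost without P (2.95, adjusted p = 0.294) and in limma-voom (1.82, adjusted p = 0.0827), and without P and Q 0 genes followed CHRD. NOG was followed by 0.196%, all positive, with no pathway gene among them, and by 0 without C and O.

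FST was followed by 0.629% of genes on a positive slope and 0.519% on a negative one (20.1% at an unadjusted p under 0.05). Its 1 pathway gene was ATOH8, a BMP target and transcription factor, with a slope of 0.64 ± 0.10 (edgeR adjusted p = 0.00539). ATOH8 ran from 2.22 CPM in O through 6.61 to 14.8 in N, the lowest and highest clones of FST as well. Its r of 0.878 was the highest of any gene with FST (permutation p = 1e-05, the smallest that 100000 resamples give, adjusted 0.0382), its rho was 0.838 (permutation p = 6e-05, adjusted 0.0687, so that the rank correlation missed the threshold), and r = 0.802 without N and O. With TOP2A in the fit the slope was 0.65 ± 0.10 (adjusted p = 0.00603). Without clones C and O, which had the least FST, it was 0.56 (adjusted p = 0.213), and without O alone its adjusted p was 0.0624. ID3, another target, had a slope of 0.42 ± 0.11 on FST that missed the threshold (adjusted p = 0.0668). As a list the targets did not follow FST: of 10 tested, 1 was called and 6 had a positive slope. Their median slope was 0.04, against 0.01 over all genes.

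**Figure D4:**
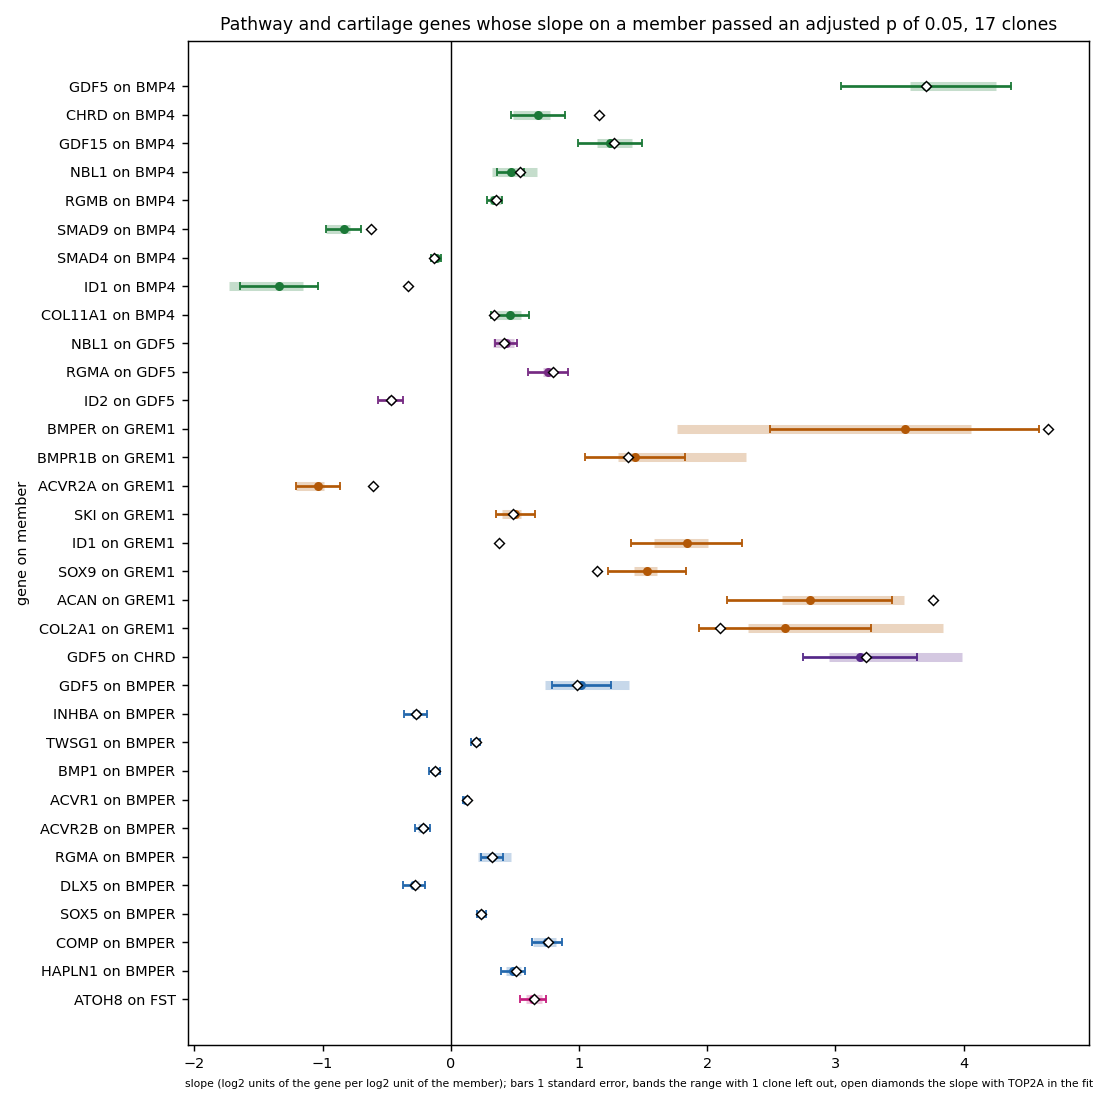
Slopes of the 33 pathway and cartilage genes that passed the threshold, in log2 units of the gene per log2 unit of the member. Points are slopes with bars of 1 SE, bands show the range with 1 clone left out, and open diamonds the slope with TOP2A in the fit. The diamond of ID1 lies near 0 on both BMP4 (-0.34) and GREM1 (0.38), whereas those of the BMPER slopes lie on their points.

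The heterogeneous library was compared with the clones to ask whether a mixed population holds what its clones do. By edgeR's quasi-likelihood test 1.22% of genes were called (1.21% higher, 0.00842% lower), and 0 of 9 members, none of which had an unadjusted p under 0.05. DESeq2 and limma-voom called 0 members too. BMP6, at 45 reads and 2.95 CPM, was above all 17 clones, as were 9.5% of genes, but K reached 2.94 CPM, and the log2 difference of 1.26 ± 0.65 did not pass (adjusted p = 0.666). None of BMP2, BMP4, BMP6, GREM1, CHRD and FST lay below all clones, as 8.71% of genes did. GDF5, NOG and BMPER could not, since each had 0 reads in some clone. BMP4 was at 63.1 CPM, above 16 clones and below P. BMP2 was at 17.3 CPM, below 15 clones, and GREM1 at 588 CPM, below 16. The cell cycle genes were below all 17 clones there, TOP2A at 8.40 CPM against 12.3 to 313 and MKI67 at 18.6 against 21.6 to 590. GDF5 had 0 reads there, NOG 4 and BMPER 3, so the high levels in single clones were not seen in the mixture at this depth. The median log2 difference of the 9 members was -1.10, against -0.04 over all genes, and 3 of the 9 were positive. The largest falls were GDF5 (-4.27 ± 4.62), BMPER (-4.08 ± 4.14) and NOG (-2.23 ± 2.42), each with an SE above its size. These 3 genes had few reads in most clones, and none of the 9 differences passed, so no shared fall is read from the median. Beside this, 9 of 12 leukocyte and macrophage markers were called higher (PTPRC, CD14, CD68, CD163, MSR1, CSF1R, CCR1, TYROBP and FCER1G), with a summed level of 222 CPM against 3.80 to 33.4 in the clones. Of the other 3, AIF1, CD74 and LAPTM5, all were higher without a call. VWF differed by 1.94 ± 0.48 (adjusted p = 0.0569). The part of these markers and of the cell cycle genes in the members' levels was not tested.

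The genes most like each member over the 17 clones, by Pearson r of log2(CPM + 0.25) and as a description, were mostly outside the pathway. For BMP2 they were ECI1 (0.814), KDELR1 (0.814) and TMEM189 (0.806). For BMP4 they were RPUSD3 (0.933), FN3K (0.912) and HYAL1 (0.904), and r for RPUSD3 stayed at 0.910 without L and P. For GREM1 they were PACSIN2 (0.900), CYTH1 (0.892) and TRAF3IP2 (0.881), and for CHRD HIGD2A (0.871), ATP9A (0.848) and NDUFV3 (0.812). For FST, SCARB2 (0.869) and ITSN2 (0.862) came after ATOH8, and for BMP6 they were RAI2 (0.781), CSRP2 (0.774) and TTR (0.772). BMPER, GDF5 and NOG fall into separate clusters of clones, so no pooled r is given for them. Their nearest genes were C4A and SOD2, CYB5D1 and FOXO6, and UBAC2 and AKAP6.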

How the data were processed

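The authors isolated poly-adenylated RNA, made single-end libraries, aligned the reads to bosTau7 (STAR 2.3.0e) and assigned them to RefSeq genes, annotation release 103, using HTSeq. The deposited values are raw read counts, not normalized. A joint table gave the same counts (0 of 305892 cells differed). The 5 tally lines that name no gene stayed out, with 18.8% to 26.8% of a file outside genes.

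The members and gene lists were chosen with earlier results of these data known. Clones came from the labels, which give no replicate numbers. Counts were filtered (filterByExpr), scaled by TMM (factors 0.892 to 1.16) and tested with edgeR 4.0.16 quasi-likelihood fits in R 4.3.3, Benjamini-Hochberg adjusted over all genes of a fit. The spread of the lone heterogeneous library was taken to be that between clones. Slopes used centred log2(CPM + 0.25). Each edgeR SE is the absolute log2 difference or slope divided by the square root of its quasi-likelihood F statistic. Correlations used two-sided permutation p-values from 100000 resamples. limma 3.58.1, DESeq2 1.42.0, other scalings, filters and pseudocounts and leaving out each clone were alternatives. Scripts were tested on simulated counts. Named genes are all members, list genes past the threshold and the 3 genes nearest each member. MKI67, TOP2A, GAPDH, FSTL1 and ID3 were picked after values were seen. Genome coordinates, gene lengths and sequences were not used here.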

Additional observations from a re-analysis of the deposited data

How the results depend on the processing

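No paired analysis was possible because the labels carry no replicate numbers and each clone has 1 library. Leaving out 1 clone in turn gave these ranges. The heterogeneous comparison had 136 to 154 genes higher, 1 to 2 lower and 0 members called. The genes that followed a member numbered 0 to 10 for BMP2, 1224 (without L) to 3455 (without P) for BMP4, 0 for BMP6, 2 (without P) to 617 (without N) for GDF5, 162 (without O) to 1509 (without D) for GREM1, 3 (without O) to 112 (without G) for NOG, 3 (without P) to 29 (without N) for CHRD, 1103 (without N) to 2274 for BMPER and 7 (without O) to 476 (without Q) for FST. FST also went to 12 without C, 79 without F, 81 without K, 84 without G, 86 without H, 208 without B and 244 without L, NOG to 4 without C and 41 without N, CHRD to 6 to 10 without C, E, G, I, L, M, O or Q, and BMP2 to 3 without A, 1 without D and 10 without Q.

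DESeq2 called 83 genes higher and 8 lower in the heterogeneous library, and library totals 2 lower. The CHRD difference of 0.06 turned to -0.030 with library totals and ran from -0.0019 (without E) to 0.24 (without P) with 1 clone left out. limma-voom made 524 calls over all clones in place of 90 and 351 in N in place of 86, with 3 member calls, and library totals gave 1 member call. Among genes that followed a member, library totals gave 2916 for GREM1 and a pseudocount of 1 CPM 51 for NOG. limma-voom gave 357 for GDF5, 509 for GREM1, 50 for NOG and 64 for FST. Adding the heterogeneous library gave 4 for BMP2, 24 for BMP6 and 38 for GDF5.

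The next settings were chosen after seeing the data. With C and O summed there were 40 calls in N, and 314 genes followed GREM1, 4 NOG, 10 CHRD and 10 FST. Without P and Q, 3483 followed BMP4, 0 GDF5, 0 CHRD, 898 BMPER and 627 FST. Without C and O, 1062 followed BMP4, 75 GREM1, 0 NOG and 2 FST. Without N, P and Q, 4124 followed BMP4, 0 GDF5, 1958 GREM1, 45 NOG, 0 CHRD and 52 BMPER, and the slopes of BMPER on GREM1 (-0.18) and DLX5 on BMPER (0.13) turned. With TOP2A as a second term, 48 followed BMP2, 1 BMP4, 161 GDF5, 19 GREM1, 43 CHRD, 3406 BMPER and 829 FST. The cause of these shifts was not tested. Of the 33 pathway slopes, 13 passed in every fit with 1 clone left out, and 0 in those and every other setting. The SD of BMPER over the clones was 1.58 without N. With 1 library per clone, members under about 10 reads (GDF5, GDF6, and NOG and BMPER in most clones) are limited by depth.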
